A study of Arabidopsis thaliana with 9 samples.

Results

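The genes described here are 10 loci of jasmonate synthesis in Arabidopsis thaliana, chosen by locus ID from a count table of 32833 genes: LOX2 (AT3G45140), LOX3 (AT1G17420), LOX4 (AT1G72520), LOX6 (AT1G67560), AOS (AT5G42650), AOC1 (AT3G25760), AOC2 (AT3G25770), AOC3 (AT3G25780), OPR3 (AT2G06050) and JAR1 (AT2G46370). All 10 passed the filter on low counts that left 16434 genes for testing. AOC1, AOC2 and AOC3 carry neighbouring locus numbers.

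Jasmonates are oxidized fatty acid hormones that plants make after wounding and herbivore attack and during stamen development. Lipoxygenases (LOX) in the plastid oxygenate linolenic acid, allene oxide synthase (AOS) and the allene oxide cyclases (AOC) turn the product into the cyclic precursor OPDA, and the peroxisomal reductase OPR3 and beta-oxidation shorten it to jasmonic acid. JAR1 then joins jasmonic acid to isoleucine, and the conjugate is perceived by COI1 and JAZ proteins, which frees MYC transcription factors. Many synthesis genes are themselves induced by jasmonate in leaves.

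Messenger RNA was measured by 3' tag sequencing in whole rosettes of plants 4 weeks old, kept under 16 h light and 8 h dark. There were 3 libraries of each genotype: TINYOE, whose genotype the labels write as BES1P::TINYOE and a line that by its name overexpresses TINY, an AP2/ERF transcription factor; tiny124, written as tiny1tiny2tiny4 and named for lesions in 3 TINY family genes; and wild type (WT). No treatment is given for any genotype, and the labels name no accession, number of lines, or number of plants per library, and the p-values therefore reflect only the spread among these libraries, which may be technical. The series is titled for brassinosteroid-regulated growth and drought responses, and the comparisons of TINYOE and tiny124 with WT and with each other ask which transcripts differ with these genotypes.

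Library totals ranged from 4917868 to 6070778 counts, and levels are given in CPM, which are counts scaled to a common TMM-adjusted library size. Each transcript gives 1 tag whatever its length, but the efficiency of tagging may differ between genes, so levels are compared between genotypes and not between genes. TINY's own tags stood at 4.61 to 6.14 CPM in TINYOE and at 0.565 to 0.827 CPM in tiny124, against 3.8 to 4.58 CPM in WT, and a transgene with another 3' end would not be seen by them. Against WT, TINY was not called in TINYOE, at a log2 fold change of 0.40 (adjusted p = 0.343), and fell in tiny124 by 2.48 on the log2 scale (adjusted p = 0.00168). TINY2 had 3 counts in the 3 TINYOE libraries together and 1 in tiny124, against 23 in WT, and did not pass the filter on low counts. The WT libraries differed most among themselves. The leading principal component held 43.0% of the variance, and on it WT replicate 2 lay at -0.53, against 53.91 and 31.48 for WT replicates 1 and 3, between -53.16 and -39.17 for TINYOE and between 6.82 and 31.96 for tiny124. The 4 leaf markers had tags in every library, with a summed level of 16899 to 19266 CPM in TINYOE and 21177 to 23432 CPM in tiny124, against 19230 to 24889 CPM in WT. The 8 flower markers summed to 39.8 to 80.5 CPM in TINYOE and 31.96 to 37.1 CPM in tiny124, against 21.8 to 35.5 CPM in WT. None of the 8 was at 0 in any library. The 6 root markers summed to at most 1.54 CPM in any library.

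Most of the enzymes were lower in TINYOE rosettes than in WT, and LOX4 was higher in both lines. Of the 10 genes, 6 fell and 1 rose in TINYOE against WT, where 7.44% and 8.15% of all tested genes were called lower and higher (15.6% in either direction). The 10 genes were chosen with earlier results of these data known, so shares over all genes are given for scale and are no test. The genes that fell were LOX2, LOX3, AOS, AOC1, AOC2 and AOC3, the gene that rose was LOX4, and LOX6, OPR3 and JAR1 did not pass the test. In tiny124 against WT 1 of the 10 rose and 0 fell, where 1.75% of tested genes were called higher and 0.755% lower (2.5% in either direction). At an unadjusted p under 0.05, which 6.48% of tested genes reached upwards and 5.11% downwards, LOX3, AOC2 and OPR3 were also above WT in tiny124, and 0 of the 10 were below it. By DESeq2 0 were below it as well. TINYOE against tiny124 showed 7 genes lower and 0 higher by edgeR, with 0 higher by DESeq2 and 0 higher at an unadjusted p under 0.05, which 11.7% of tested genes reached upwards. In that comparison 4.73% of tested genes were called lower and 5.12% higher (9.85% in either direction). The median log2 fold change of the 10 genes was -0.87 in TINYOE against WT, 0.50 in tiny124 against WT and -1.39 in TINYOE against tiny124, while the medians of all tested genes were 0.00, -0.01 and 0.01. Without WT replicate 2, 5 of the 10 were called lower in TINYOE against WT, as were 1891 of 16835 tested genes. Without WT replicate 1, 6 of the 10 were, with 788 of 16821 tested genes. Without TINYOE replicate 1, 3 of the 10 were, with 746 of 16768 tested genes. The comparisons with WT share the same 3 WT libraries. A lower level in whole rosettes can mean less of the transcript per cell or fewer cells that hold it, which these data cannot tell apart.

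**Figure D1:**
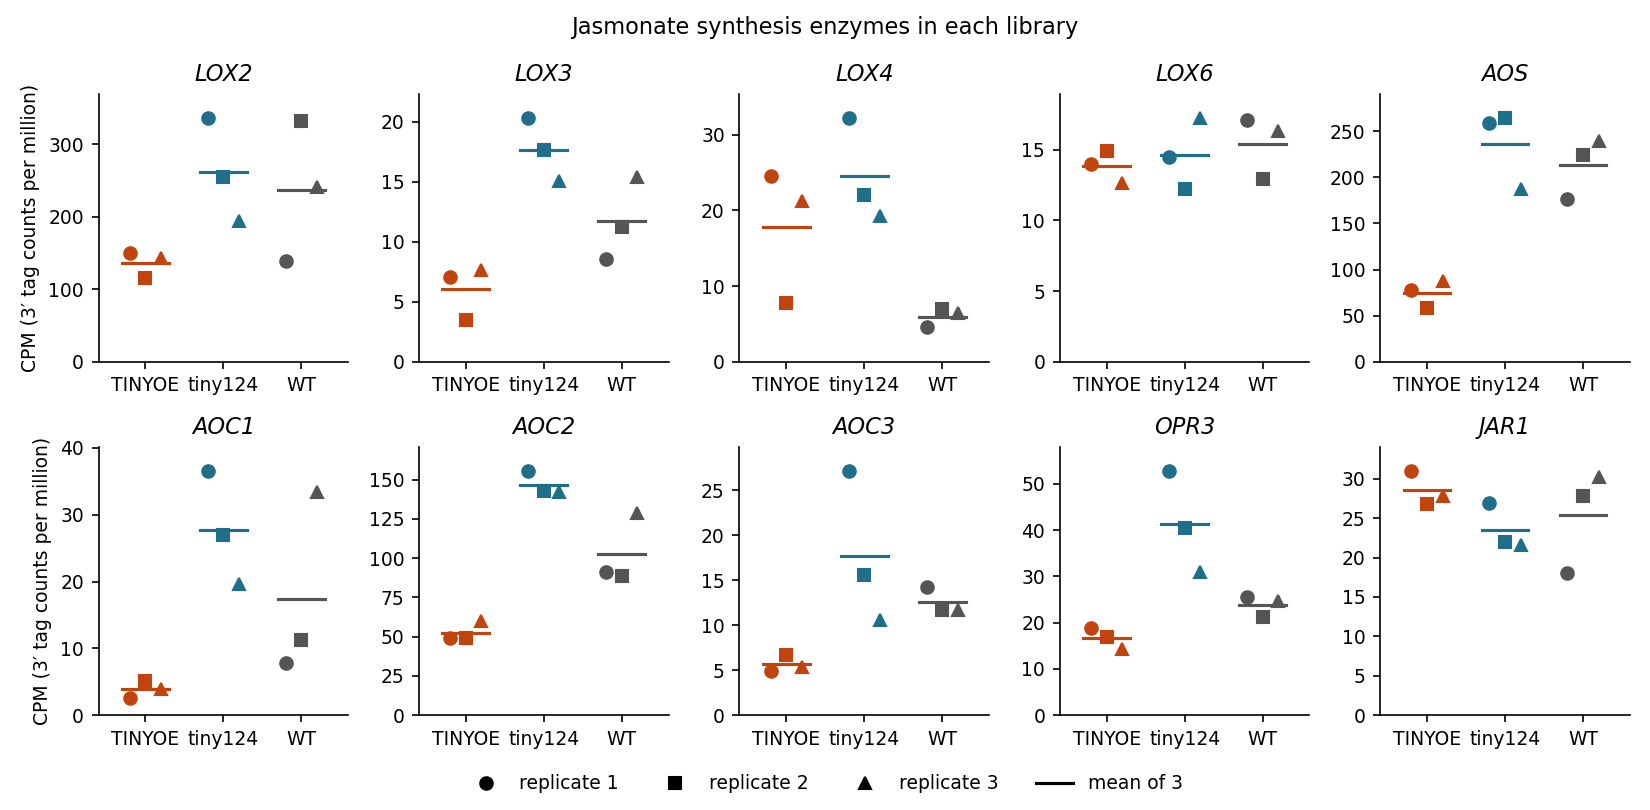
Level of each of the 10 genes in CPM (y axis, starting at 0, scaled per gene) in the 3 libraries of TINYOE, tiny124 and WT (x axis); symbols mark the replicate number and the horizontal line is the mean of 3. AOS lies at 58.2 to 87.7 CPM in TINYOE, below every tiny124 and WT library, whereas LOX4 in WT lies at 4.56 to 6.99 CPM, below every library of both lines.

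The lipoxygenases begin the pathway, and the 4 genes did not move together. LOX2, which supplies much of the jasmonate of wounded leaves, had 150, 116 and 143 CPM in TINYOE replicates 1, 2 and 3 and 336, 254 and 195 CPM in tiny124, against 139, 332 and 241 CPM in WT. The WT libraries spread more widely than those of either line, and WT replicate 1 lay among the TINYOE libraries. The mean was 136 ± 18.1 CPM in TINYOE and 237 ± 96.5 CPM in WT (SD, n = 3 each), a log2 fold change of -0.80 ± 0.26 (SE, adjusted p = 0.0479). This call did not hold without WT replicate 2, the highest WT library, where the log2 fold change was -0.47 (adjusted p = 0.149), or in 8 of the other 15 alternative settings. Against tiny124, in which every library lay above those of TINYOE, LOX2 fell in TINYOE with a log2 fold change of -0.94 ± 0.26 (adjusted p = 0.0299), a call lost in 6 of 16 alternative settings. The difference between tiny124 and WT was 0.14, with a 95% interval of -0.40 to 0.69.

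LOX3 and LOX4 encode related enzymes that are known to act together in stamen development and that also contribute to the jasmonate of wounded leaves. LOX3 had 7.08, 3.51 and 7.69 CPM in TINYOE and 20.3, 17.7 and 15.1 CPM in tiny124, against 8.54, 11.2 and 15.4 CPM in WT. All TINYOE libraries lay below all WT libraries, and tiny124 overlapped WT narrowly from above. LOX3 fell in TINYOE against WT (log2 fold change -0.94 ± 0.29, adjusted p = 0.0365) and against tiny124 (-1.53 ± 0.28, adjusted p = 0.00201), while tiny124 against WT stood at 0.59 ± 0.27 (adjusted p = 0.39). The fall against WT was not called without TINYOE replicate 2 (adjusted p = 0.147) or WT replicate 3 (0.186), the lowest TINYOE and the highest WT library, nor without TINYOE replicate 1 (0.0575) or tiny124 replicate 2 (0.0503), and it missed the threshold in a fit of the 6 libraries compared (0.0581) and with the replicate number as a block (0.0522).

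LOX4 ran the other way. It had 24.5, 7.71 and 21.2 CPM in TINYOE and 32.2, 21.99 and 19.2 CPM in tiny124, against 4.56, 6.99 and 6.42 CPM in WT. Every library of both lines was above every WT library, although TINYOE replicate 2 exceeded the highest WT library by little. LOX4 rose 2.98-fold in TINYOE (log2 fold change 1.58 ± 0.36, adjusted p = 0.00713) and 4.08-fold in tiny124 (2.03 ± 0.35, adjusted p = 0.0051), and it passed the test in both comparisons under every alternative setting. Without TINYOE replicate 2 its log2 fold change in TINYOE was 1.93. Between TINYOE and tiny124 it differed by -0.45, with a 95% interval of -1.12 to 0.21.

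LOX6, known for the rapid production of jasmonate after wounding, stood at 14.0, 14.9 and 12.6 CPM in TINYOE and 14.5, 12.2 and 17.3 CPM in tiny124, against 17.1, 12.9 and 16.3 CPM in WT. The genotypes overlapped. The 95% interval of its log2 fold change was -0.58 to 0.27 in TINYOE against WT and -0.50 to 0.35 in tiny124 against WT.

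Among the tags of the 4 lipoxygenase genes, LOX4 took a larger share in both lines than in WT. LOX4 made up 12.6%, 5.45% and 11.5% of the tags of the 4 genes in TINYOE and 7.98%, 7.18% and 7.82% in tiny124, against 2.7%, 1.93% and 2.3% in WT. The narrowest gap was between TINYOE replicate 2, with a 95% exact binomial interval of 3.98% to 7.24%, and WT replicate 1, with 1.74% to 3.99%. These intervals just touch and cover counting error only. LOX2 took 76.7% to 81.6% in TINYOE and 79.1% to 83.4% in tiny124, against 82.1% to 91.4% in WT. These shares come from the counts tested above and were not tested again.

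**Figure D2:**
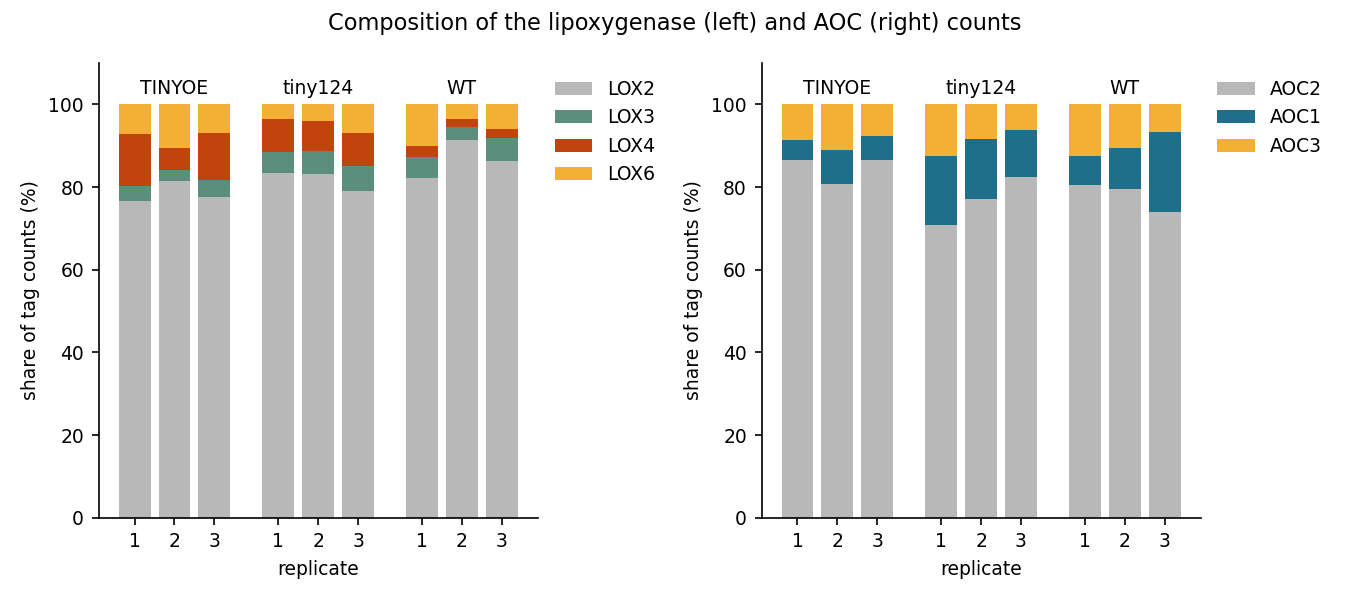
Share of tag counts in percent (y axis) of each lipoxygenase gene among the 4 (left) and of each AOC gene among AOC1, AOC2 and AOC3 (right), in each library (x axis, replicates 1 to 3 of TINYOE, tiny124 and WT). The LOX4 segment holds 5.45% to 12.6% in TINYOE and 1.93% to 2.7% in WT, and the AOC1 segment ranges from 4.65% to 8.38% in TINYOE and from 6.88% to 19.2% in WT.

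AOS, the cytochrome P450 (CYP74A) that commits the lipoxygenase product to the jasmonate branch, had the lowest adjusted p of the 10 genes in TINYOE against WT. It had 78.0, 58.2 and 87.7 CPM in TINYOE and 258, 264 and 187 CPM in tiny124, against 176, 224 and 239 CPM in WT. The highest TINYOE library was below the lowest library of either other genotype, and tiny124 and WT overlapped. Its mean was 74.6 ± 15.0 CPM in TINYOE, 236 ± 43.1 CPM in tiny124 and 213 ± 32.9 CPM in WT (SD, n = 3 each). AOS fell in TINYOE against WT with a log2 fold change of -1.51 ± 0.20 (adjusted p = 0.000121) and against tiny124 with -1.66 ± 0.20 (adjusted p = 5.85e-05). Over the alternative settings the value against WT stayed between -1.64 and -1.36 and always passed the test. In tiny124 against WT the log2 fold change was 0.15, with a 95% interval of -0.26 to 0.56.

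The allene oxide cyclases close the ring of OPDA. AOC2, which had the most tags of AOC1, AOC2 and AOC3 in every library, stood at 49.1, 48.9 and 59.6 CPM in TINYOE and 155, 143 and 142 CPM in tiny124, against 91.1, 88.7 and 129 CPM in WT. The 3 genotypes did not overlap, in the order TINYOE, WT, tiny124. AOC2 fell in TINYOE against WT (log2 fold change -0.97 ± 0.18, adjusted p = 0.00174), and its log2 fold change of 0.51 ± 0.18 in tiny124 against WT did not pass the test (adjusted p = 0.188). Against tiny124 it fell in TINYOE by 1.48 ± 0.18 on the log2 scale (adjusted p = 6.38e-05).

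AOC1 had 2.63, 5.08 and 3.93 CPM in TINYOE and 36.5, 27.0 and 19.6 CPM in tiny124, against 7.78, 11.2 and 33.4 CPM in WT. WT replicate 3 was 4.29 times as high as WT replicate 1, the widest spread of any of the 10 genes within a genotype. AOC1 fell 4.52-fold in TINYOE against WT (log2 fold change -2.18 ± 0.46, adjusted p = 0.0046). Without WT replicate 3 that value was -1.28 (adjusted p = 0.0322), and the value in tiny124 against WT was 1.55 (adjusted p = 0.0246), in place of 0.66 (adjusted p = 0.577) with it. TINYOE and tiny124, whose libraries did not overlap, differed by -2.83 ± 0.45 (adjusted p = 0.000689).

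AOC3 had 4.94, 6.66 and 5.30 CPM in TINYOE and 27.1, 15.5 and 10.5 CPM in tiny124, against 14.2, 11.6 and 11.7 CPM in WT. It fell in TINYOE against WT (log2 fold change -1.15 ± 0.31, adjusted p = 0.0175) and against tiny124 (-1.65 ± 0.30, adjusted p = 0.0019), and tiny124 overlapped WT (0.49 ± 0.28, adjusted p = 0.549). The call against WT was lost without TINYOE replicate 1 (adjusted p = 0.0686) or 3 (0.0633). The 3 genes are related copies, whose sequences were not compared here. How reads that match several of them were counted is not given in the sources used here, so the split between them is uncertain. Their summed counts do not depend on that split, but would depend on any such reads that were dropped or counted more than once. The sum stood at 56.6, 60.7 and 68.9 CPM in TINYOE and 219, 185 and 172 CPM in tiny124, against 113, 112 and 174 CPM in WT. It fell in TINYOE against WT with a log2 fold change of -1.10 ± 0.19 (adjusted p = 0.00121) and against tiny124 with -1.63 ± 0.19 (adjusted p = 5.76e-05), and stood at 0.53 ± 0.19 in tiny124 against WT (adjusted p = 0.212). AOC4 (AT1G13280), a further cyclase gene, had 80.7 to 101.7 CPM in TINYOE and 135 to 166 CPM in tiny124, against 95.1 to 202 CPM in WT, and its log2 fold change of -0.65 ± 0.22 in TINYOE against WT did not pass the test (adjusted p = 0.0585). It was called lower with DESeq2 (adjusted p = 0.0427) and without WT replicate 2 (log2 fold change -0.88, adjusted p = 0.00239).

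OPR3 reduces OPDA in the peroxisome and is needed for fertile pollen. It had 18.9, 16.8 and 14.4 CPM in TINYOE and 52.7, 40.4 and 30.9 CPM in tiny124, against 25.6, 21.2 and 24.6 CPM in WT. The genotypes did not overlap and stood in the same order as for AOC2. The difference between the lines passed the test (TINYOE against tiny124, log2 fold change -1.30 ± 0.21, adjusted p = 0.000755), while neither line passed it against WT. The log2 fold change against WT was -0.51 ± 0.21 in TINYOE (adjusted p = 0.118) and 0.79 ± 0.21 in tiny124 (adjusted p = 0.0535). The tiny124 value lay near the threshold, and OPR3 was called higher there with DESeq2 (adjusted p = 0.0256) and without tiny124 replicate 3 (0.0278), its lowest library.

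JAR1, which makes the active isoleucine conjugate, showed no such order. It had 31.0, 26.8 and 27.9 CPM in TINYOE and 26.9, 21.99 and 21.6 CPM in tiny124, against 18.04, 27.7 and 30.2 CPM in WT. The genotypes overlapped, and the 95% interval of the log2 fold change was -0.26 to 0.60 in TINYOE against WT, -0.54 to 0.32 in tiny124 against WT and -0.15 to 0.71 in TINYOE against tiny124.

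**Figure D3:**
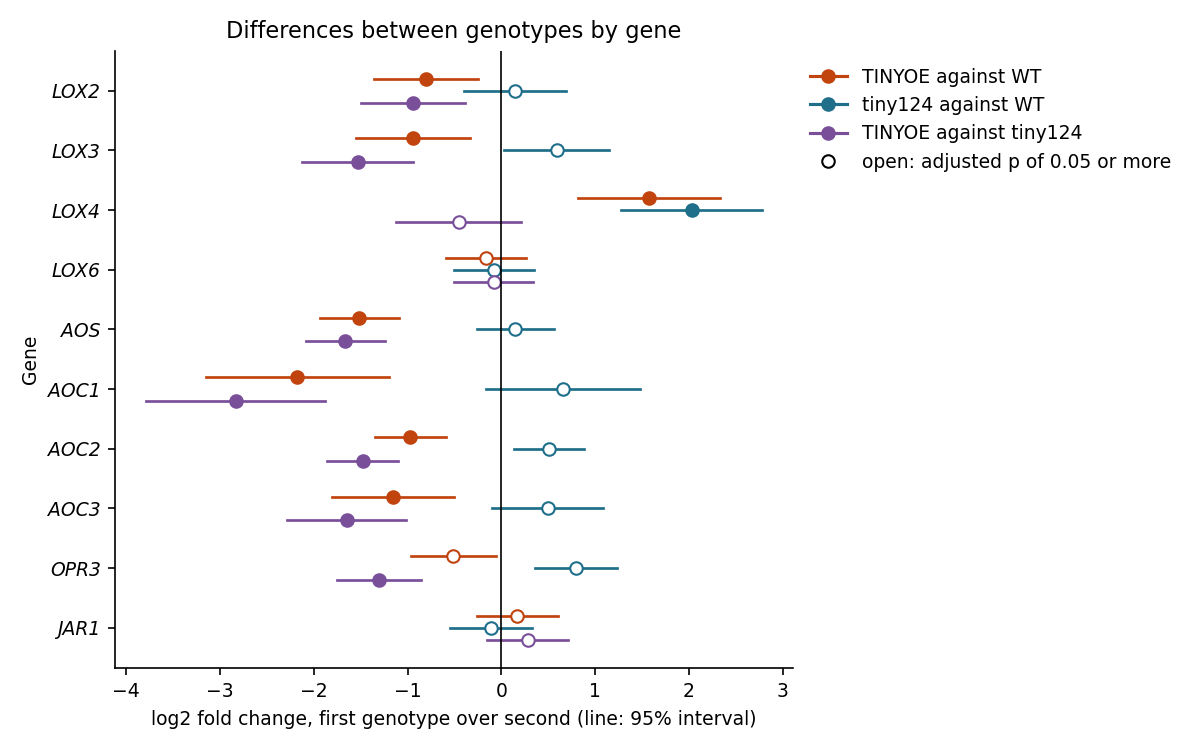
Log2 fold change (x axis) of each gene (y axis) in TINYOE against WT, tiny124 against WT and TINYOE against tiny124, with 95% intervals as lines; filled points have an adjusted p under 0.05. AOS lies at -1.51, 0.15 and -1.66 in the 3 comparisons, and LOX4 at 1.58, 2.03 and -0.45.

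All libraries of the genotypes compared stood apart, without overlap, for 6 genes lower (LOX3, AOS, AOC1, AOC2, AOC3 and OPR3) and 1 higher (LOX4) in TINYOE against WT, where 15.3% and 16.2% of tested genes did so in each direction. The same held for 3 genes higher in tiny124 against WT (LOX4, AOC2 and OPR3), where 8.23% of tested genes did so, and for none lower, where 7.58% did. It held for 7 genes lower in TINYOE against tiny124, where 15.3% did. The lowest library of a genotype was the same one for many of the genes in tiny124 and less uniform in TINYOE and WT. TINYOE replicate 2 was the lowest of its genotype in 6 of the 10 genes (LOX2, LOX3, LOX4, AOS, AOC2 and JAR1). It was the highest in 3 (LOX6, AOC1 and AOC3). Its flower marker sum was the highest, at 80.5 CPM against 39.8 and 62.7 CPM in TINYOE replicates 1 and 3. The tiny124 replicate 3 library was the lowest of its genotype in 9 genes, all but LOX6, and tiny124 replicate 1 the highest in 8. In tiny124 the flower marker sums were 37.1, 32.7 and 31.96 CPM in replicates 1, 2 and 3, from 197, 198 and 176 counts. Among the WT libraries, replicate 1 had the lowest level of 6 genes, LOX2 and AOS among them, and replicate 2 that of the other 4, LOX6, AOC2, AOC3 and OPR3. The flower marker sums of WT replicates 1, 2 and 3 were 35.5, 21.8 and 25.7 CPM. Of the 7 flower markers tested, PI and SEP2, which specify floral organs, rose in TINYOE against WT (log2 fold changes 0.96 and 1.64, adjusted p = 0.0282 and 0.00131). At an unadjusted p under 0.05, which 4990 of 16434 tested genes reached in either direction, 6 of the 7 were higher. The median log2 fold change of the 7 was 1.02. Of the 4 leaf markers, RBCS1A and RCA fell (log2 fold changes -0.49 and -0.61, adjusted p = 0.03 and 0.022). The other 2, CAB1 and GAPA, were not called. CAB1 had a mean of 7696.7 CPM in TINYOE against 8594.5 CPM in WT. GAPA went the other way, with 1335.8 CPM in TINYOE against 1126.9 CPM in WT. PI, RBCS1A and RCA each lost the call in some alternative settings (adjusted p up to 0.155, 0.129 and 0.122). In tiny124 against WT 0 markers of either kind were called by edgeR or DESeq2, and 1, RCA, had an unadjusted p under 0.05. In TINYOE against tiny124 SEP2 rose (log2 fold change 1.56, adjusted p = 0.00207), 4 of the 7 flower markers were higher at an unadjusted p under 0.05, and RBCS1A was called lower by DESeq2 but not by edgeR (log2 fold change -0.41, adjusted p = 0.0871). The part of organ make-up in the results above was not tested.

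The other steps of the pathway are given by list, with no test between the lists. Among the genes known to release or desaturate the fatty acid precursor, 6 of 13 were tested, and 1 rose and 0 fell in each line against WT, with 0 lower by DESeq2 or at an unadjusted p under 0.05. The gene was PLIP2 (AT1G02660), a plastid lipase. It had 77.4, 78.7 and 71.9 CPM in TINYOE and 82.8, 70.3 and 79.9 CPM in tiny124, against 23.2, 29.4 and 21.3 CPM in WT. PLIP2 thus rose in both lines, as LOX4 did, with log2 fold changes of 1.63 ± 0.17 in TINYOE (adjusted p = 2.22e-05) and 1.66 ± 0.17 in tiny124 (adjusted p = 8.56e-05). The lipase genes DAD1 and DGL had 0 counts in every library. Of the 8 genes for OPDA export, peroxisomal import and beta-oxidation, all tested, 1 rose in TINYOE, the thiolase gene KAT2 (log2 fold change 0.54 ± 0.18, adjusted p = 0.0496), and 0 were called in tiny124 by edgeR or DESeq2, or at an unadjusted p under 0.05. KAT2 lost its call in 11 of 16 alternative settings. Of 5 tested relatives and competing oxylipin enzymes, 0 were called in either line against WT by edgeR, and AOC4 was the 1 gene of them called by DESeq2 or with an unadjusted p under 0.05, in TINYOE. In TINYOE against tiny124, 1 precursor gene, DALL3, was higher and 0 lower by edgeR, and DESeq2 also called DALL2 lower. The peroxisomal and oxylipin lists had 0 calls there by edgeR or DESeq2. AOC4 and OPCL1 were lower there at an unadjusted p under 0.05. DALL3, DALL2 and OPCL1 were picked out after their values were seen.

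Genes that conjugate, methylate or inactivate jasmonate were lower in TINYOE in 3 of 7 tested cases and higher in 0 by edgeR or DESeq2, with 1 higher at an unadjusted p under 0.05. JMT, the methyltransferase that forms methyl jasmonate, had 0.165, 0.876 and 0.854 CPM in TINYOE and 3.77, 3.14 and 3.27 CPM in tiny124, against 1.71, 3.18 and 3.12 CPM in WT, a log2 fold change of -2.05 ± 0.50 in TINYOE against WT (adjusted p = 0.0103). The call was lost without TINYOE replicate 1, the library with 1 count (-1.59, adjusted p = 0.0502). JOX4, a jasmonate-inactivating oxidase, had 2 counts in the 3 TINYOE libraries together, against 30 in WT, a ratio of depth-scaled counts of 0.0584 (95% exact interval 0.00676 to 0.230, counting error only). Its adjusted p by edgeR was 0.00228. In tiny124 JOX4 had 36 counts. GH3.10, a relative of JAR1, fell in both lines, to 19.6 ± 1.67 CPM in TINYOE and 22.3 ± 3.30 CPM in tiny124, against 38.9 ± 4.95 CPM in WT (SD, n = 3 each). Its log2 fold changes were -0.99 ± 0.18 in TINYOE (adjusted p = 0.0017) and -0.80 ± 0.18 in tiny124 (adjusted p = 0.0257), the second lost in 6 of 16 alternative settings. In TINYOE against tiny124 the genes lower were 5 of 7, namely JOX4, JMT, JOX2, ILL6 and IAR3, of which the last 3 were picked out after their values were seen. IAR3 lost its call in 8 of 16 alternative settings, DESeq2 among them (adjusted p = 0.0886), and JOX2 in 3. DESeq2 also called 5, with CYP94B3 in place of IAR3.

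Among 10 tested genes of perception and signalling, 2 fell and 0 rose in TINYOE against WT by edgeR and by DESeq2, with 1 higher at an unadjusted p under 0.05. They were NINJA, the adaptor that links JAZ repressors to a co-repressor, at 10.7, 11.4 and 9.74 CPM in TINYOE against 25.1, 14.0 and 24.2 CPM in WT (log2 fold change -0.99 ± 0.23, adjusted p = 0.00767), and MYC4, a transcription factor released from JAZ proteins, at 15.0, 19.1 and 22.7 CPM against 42.9, 27.3 and 41.6 CPM in WT (-0.98 ± 0.23, adjusted p = 0.00874). In tiny124 against WT 0 of the 10 were called by edgeR or DESeq2, and 3 had an unadjusted p under 0.05, all higher. In TINYOE against tiny124 4 of the 10 were lower (MYC2, NINJA, JAM1 and ORA47) and 1 was higher, JAV1, at a log2 fold change of 1.52 ± 0.44 (adjusted p = 0.0372). DESeq2 called 3 lower and 0 higher. NINJA, at 16.7 to 21.6 CPM in tiny124, lost its call in 5 of 16 alternative settings (adjusted p up to 0.0909). MYC4 had 21.7 to 34.1 CPM in tiny124. MYC2, the main such factor, was picked out after its values were seen, as were JAM1, ORA47 and JAV1. MYC2 had 26.0, 13.7 and 22.7 CPM in TINYOE and 66.8, 46.6 and 43.9 CPM in tiny124, against 27.7, 27.5 and 42.3 CPM in WT. As for OPR3, the lines differed from each other (TINYOE against tiny124, log2 fold change -1.33 ± 0.25, adjusted p = 0.0026) and neither passed the test against WT (-0.64 and 0.69, adjusted p = 0.0964 and 0.218).

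**Figure D4:**
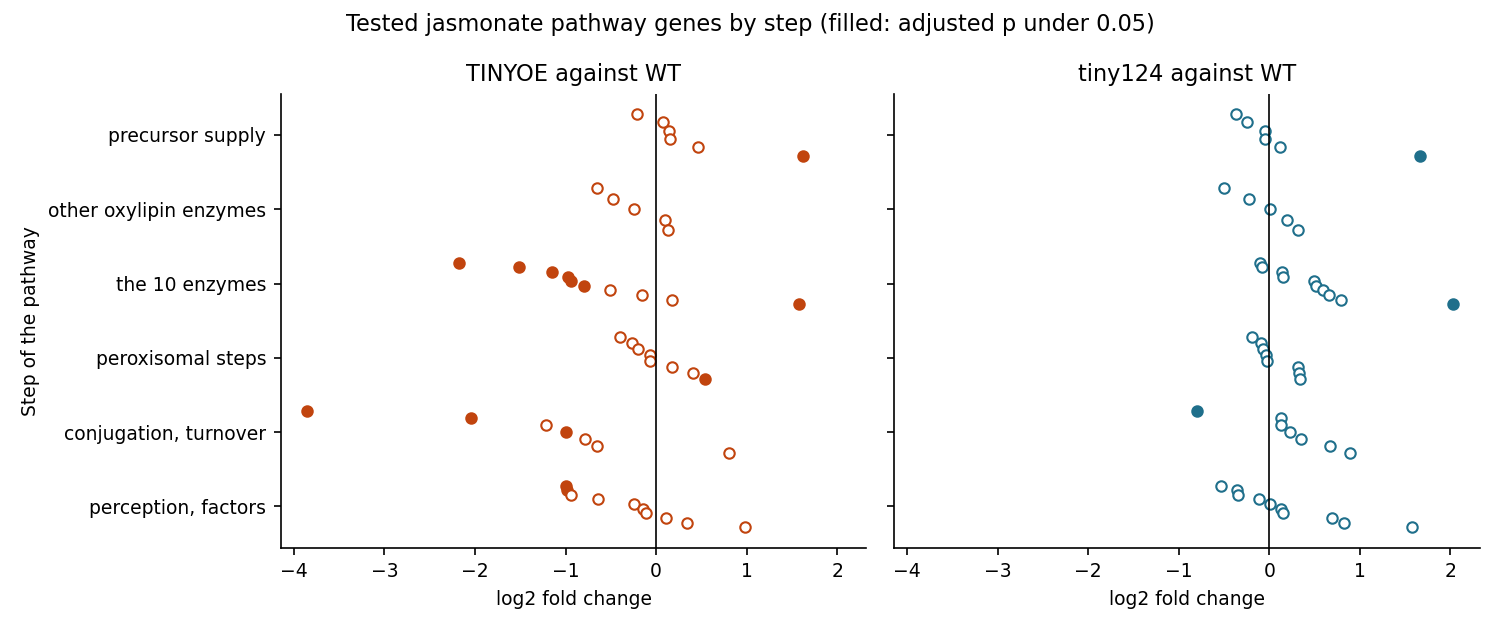
Log2 fold change (x axis) of each tested gene, 1 point per gene, by step of the jasmonate pathway (y axis) in TINYOE against WT (left) and tiny124 against WT (right); filled points have an adjusted p under 0.05. In TINYOE 6 filled points of the 10 enzymes lie below 0 and LOX4 at 1.58 above it, the leftmost point, JOX4, rests on 2 counts in TINYOE, and in the precursor supply PLIP2 lies at 1.63 in TINYOE and 1.66 in tiny124.

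Likeness to AOS was measured as the root mean square difference between mean-centred log2 CPM profiles over the 9 libraries, among 12082 other genes with a mean of at least 5 CPM, whose median difference from AOS was 0.825. The nearest were GASA1 (0.173), AT4G24350 (0.182), TIP2;2 (0.219), AGP21 (0.223) and CLH1 (0.226). All 5 had lower means in TINYOE than in WT, which follows from their choice by likeness to AOS. GASA1, a gibberellin-regulated peptide gene, stood at 244 CPM in TINYOE and 665 CPM in tiny124, against 585 CPM in WT, and the chlorophyllase gene CLH1 at 20.5, 58.5 and 56.8 CPM in the same genotypes. Of the other 9 synthesis genes, AOC2 (0.305) and LOX3 (0.310) were nearest to AOS, ahead of AOC3 (0.412), LOX2 (0.443) and OPR3 (0.496), and LOX4 was farthest (1.24). These values are descriptions and carry no test.

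The authors' deposited table for TINYOE against WT, which does not hold WT replicate 2, called AOS (-1.47), AOC1 (-2.40) and AOC2 (-1.06) lower and LOX4 (1.70) higher, by its log2 fold changes and at an adjusted p under 0.05. Over all genes, the same threshold gave 1604 lower and 1742 higher in it. LOX2 and LOX3 stood there at -0.47 and -0.97 with adjusted p of 0.45 and 0.245, and AOC3 at -1.20 with 0.105. The authors' deposited table for tiny124 against WT, which also lacks WT replicate 2, called LOX4 alone of the 10, at 2.16 (adjusted p = 0.00254). Over all genes, 279 were called higher and 138 lower in that table.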

How the data were processed

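Total RNA of 9 rosette samples, about 500 ng each, was made into QuantSeq 3' libraries and read as single 50 nt reads, per the labels. The deposited counts are whole reads per gene, mapped to TAIR10 with the BlueBee Lexogen QuantSeq FWD pipeline 2.2.2, per the labels; its aligner, annotation and treatment of reads matching several genes are not stated there. The authors' tables, made with DESeq2 per the submitters' processing notes, hold the deposited log2 fold changes and deposited p-values used here for the authors' calls. Their normalized counts, rounded by the authors and treated as a score, were not analysed.

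Counts were tested with edgeR 4.0.16 (quasi-likelihood, TMM, filterByExpr; limma 3.58.1, R 4.3.3) fitting genotype alone over all 9 libraries in 1 model, which left 6 residual degrees of freedom. Tests were two-sided, with Benjamini-Hochberg adjustment over 16434 genes and a threshold of 0.05; a gene "rose" or "fell" only past it. Genes dropped held 0.296% of counts. Beside log2 fold changes ± is the SE; intervals are 95%. The method was tested on simulated data.

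Symbols came from an annotation of TAIR10.1, matched by locus for 32548 of 32833 genes. Because its name differs from the build of the labels, no coordinates or sequences are printed. The 10 genes and 8 other lists with 68 loci were chosen with earlier results of these data known. In each pathway list up to 3 genes called against WT in either line, averaging 1 CPM or more and changed most, are named, or the 1 gene of highest mean where none was called; so are the 5 genes nearest to AOS. The alternative settings were the DESeq2 1.42.0 test, its size factors inside edgeR, keeping all genes, requiring 5 CPM in 3 libraries, fits of only the 6 libraries being compared, a block for replicate number, omission of each library, and AOC1, AOC2 and AOC3 summed.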

Additional observations from a re-analysis of the deposited data

How the results depend on the processing

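AOS, AOC1 and AOC2 in TINYOE against WT, LOX4 and PLIP2 in both lines against WT, and LOX3, AOS, AOC1, AOC2, AOC3 and OPR3 in TINYOE against tiny124 kept their direction and their call under every alternative run. In the run with AOC1, AOC2 and AOC3 summed, the sum stood in for each of these 3 genes, here and in the tally that follows. That run tests none of the 3 singly. Of the values followed for single genes, 1022 kept direction and side of the threshold, 72 lost a call, 14 gained one and 16 changed sign. Leaving out each library in turn, 3 to 6 of the 10 genes were called lower in TINYOE against WT and 1 to 2 higher in tiny124 against WT. For all genes the ranges were 868 to 2141 higher and 712 to 1891 lower in TINYOE against WT, 129 to 375 higher and 34 to 151 lower in tiny124 against WT, and 481 to 1131 higher and 461 to 1074 lower in TINYOE against tiny124. In tiny124 against WT, DESeq2, no filter and the filter of 5 CPM each called 2 of the 10 genes higher. Over all alternative settings, 129 to 488 of all genes were called higher there. No filter gave 488 genes higher and 218 lower there, and the fit of 6 libraries 81 lower; in TINYOE against tiny124 that fit gave 1167 lower. The cause of these shifts was not tested. With AOC1, AOC2 and AOC3 summed, the count of called genes among the 10 was not taken.

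Samples with the same replicate number did not deviate together (correlations of -0.31 to 0.36, with 2 of 9 over 0.1, against -0.41 to 0.44 for other pairs), so the numbers were not taken as pairs. With the replicate block, LOX2 and LOX3 lost their calls in TINYOE against WT (adjusted p = 0.0895 and 0.0522). LOX2 also lost its call in TINYOE against tiny124 (0.0599). The other calls among the 10 genes stayed as in the main fit. Of all genes, 75 were called lower in tiny124 against WT with the block, against 124 in the main fit.

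Sign changes were all in values that were not called. With 1 library left out, the log2 fold change in TINYOE against WT ranged from -0.013 to 0.33 for JAR1. In tiny124 against WT it ranged from -0.12 to 0.47 for LOX2, -0.21 to 0.046 for LOX6, -0.29 to 0.046 for JAR1, -0.23 to 0.31 for AOC4, -0.057 to 0.35 for JOX4 and -0.33 to 0.036 for NINJA. In TINYOE against tiny124 it ranged from -0.20 to 0.054 for LOX6 and -0.10 to 0.016 for PLIP2. AOC4 in tiny124 against WT was also -0.0032 with DESeq2 and -0.0017 with DESeq2 size factors.

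Depth limits the genes near 1 CPM, such as JMT and JOX4, which rest on few counts in each library.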
